A study of Mus musculus with 6 samples.

Results

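Ganglion cells carry the output of the retina to the brain, and 37 genes known as markers of the other retinal neurons were read in 3 sorts of ganglion cells. The genes were taken from a list of amacrine, starburst amacrine, rod, cone, bipolar and horizontal cell markers. Of the 37, 35 have a probe set of their own on the array, out of 18193 genes with one, and where a gene had several, the one brightest on average over the 6 arrays stood for it. Nr2e3, a rod transcription factor, and Grm6, the glutamate receptor of ON bipolar cells, were not analysed here.

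The cells came from retinas of C57BL/6 mice aged 6 postnatal days, were freed with papain and purified by flow cytometry. The Hb9 group is 2 samples of ganglion cells of the subtype labelled Hb9, positive for GFP and Thy1, the Drd4 group is 2 samples of the subtype labelled Drd4, also positive for GFP and Thy1, and the Thy1 group is 2 samples of cells labelled for Thy1 without a GFP criterion. Per the series text both samples of a group came from different litters, and the labels do not give the transgene behind GFP in either group, how many animals were pooled or which sex they were. Both GFP subtypes are known from other work as ganglion cells selective for a direction of motion. Thy1, a surface protein of ganglion cells, was used for every sort, and RNA went through 2 rounds of amplification before it was hybridised to Affymetrix mouse arrays.

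Light is caught by rods and cones, which pass their signal to bipolar cells and from these to ganglion cells. Horizontal cells act on the first synapse, and amacrine cells on the second, mostly with GABA or glycine. Starburst amacrine cells release both GABA and acetylcholine and supply the inhibition from which direction-selective ganglion cells gain their tuning. At the end of the first postnatal week mouse photoreceptors and bipolar cells are still maturing, and many of their genes are at low levels in the whole retina.

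The sorted samples carried the ganglion cell genes brightly. Of 15 listed ganglion cell genes 14 were measured, and 13 of them lay above the bacterial control signal on all 6 arrays. That signal is the highest of 27 probe sets for Bacillus subtilis genes (dap, lys, phe, thr and trp) on the same array, and it stood at a log2 intensity of 4.95 to 5.38. It is a rough reference only, since each probe set has a background of its own and spiking of these controls is not stated. Median intensities of the arrays ran from 45.5 to 47.7. Slc17a6, the vesicular glutamate transporter of ganglion cells, read 11.39 and 11.49 in Hb9 cells, 11.65 and 11.20 in Drd4 cells, and 11.19 and 11.24 in Thy1 cells on the log2 scale. Other genes of the list differed between sorts. By an adjusted p below 0.05 in limma, 1 of 14 was higher and 0 lower in Hb9 minus Thy1. In Drd4 minus Thy1 3 were higher and 2 lower. Over all genes 6.71% and 5.47% were called in these comparisons. Isl1 read 11.54 and 11.69 in Hb9 cells, 9.74 and 9.63 in Drd4 cells, and 11.36 and 11.49 in Thy1 cells. The Thy1 sort also held more transcripts of microglial and of some vessel wall genes. By an adjusted p below 0.05 in limma, 9 of 10 microglial genes were lower in Hb9 and 9 of 10 lower in Drd4. Of the vessel genes 4 of 9 were lower in Hb9 and 5 of 9 lower in Drd4. Over all genes 3.19% were lower in Hb9 and 3.96% in Drd4. In Hb9 minus Thy1 Pecam1 (0.11), Cldn5 (0.10), Kdr (-0.01) and Cdh5 (-0.14) did not pass. The summed intensity of the microglial list was 901 and 1080 in Hb9 cells, 1527 and 655 in Drd4 cells, and 6944 and 3747 in Thy1 cells. For the 9 vessel genes the sums were 1968 and 1591 in Hb9 cells, 1172 and 303 in Drd4 cells, and 7807 and 8728 in Thy1 cells. Rgs5 alone gave 1423 and 1066 in Hb9 cells, 725 and 32.2 in Drd4 cells, and 5374 and 6125 in Thy1 cells. It did not pass in Hb9 minus Thy1 (adjusted p = 0.227 in limma).

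A smaller share of these markers than of all genes read above the bacterial control signal, in all 3 sorts. Of the 35 measured, 14 lay above it on both Hb9 arrays, 18 on both Drd4 arrays and 18 on both Thy1 arrays, against 67%, 71.2% and 72.7% of all genes on the same arrays. On all 6 arrays 14 members were above it, against 65% of all genes, and 15 were above it on none, against 18.6% of all genes. Of 7 amacrine genes 2 were above on all 6 arrays, of 4 starburst genes 0, of 9 rod genes 2, of 5 cone genes 3, of 6 bipolar genes 5 and of 4 horizontal genes 2. These counts rest on the brightest probe set of each gene and carry no test. When every probe set of a gene had to be above on all 6 arrays, 4 of the 35 were, namely Slc6a9 and, with a single probe set each, Nrl, Opn1mw and Cngb3. The share over all genes under this rule was not computed, and the rule is harder to meet for any gene with several probe sets.

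**Figure D1:**
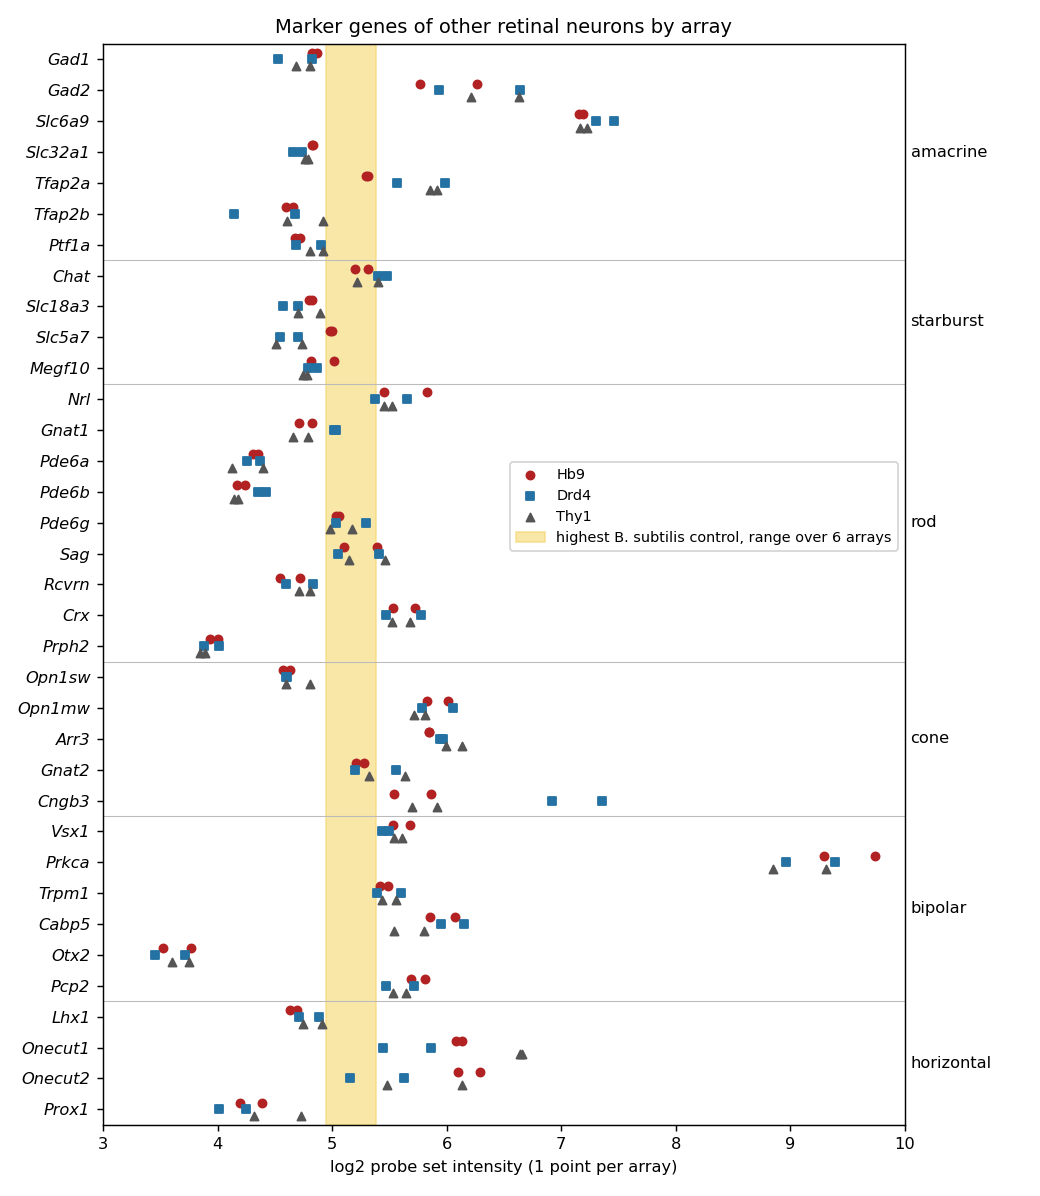
Log2 probe set intensity of the 35 measured marker genes on each array, grouped by the cell class they mark, with 1 point per array in red circles for Hb9, blue squares for Drd4 and grey triangles for Thy1. The yellow band spans the highest Bacillus subtilis control over the 6 arrays, from 4.95 to 5.38, and most rod, starburst and amacrine points lie inside or left of it, while all points of Prkca, Slc6a9 and Cngb3 lie to its right.

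**Figure D2:**
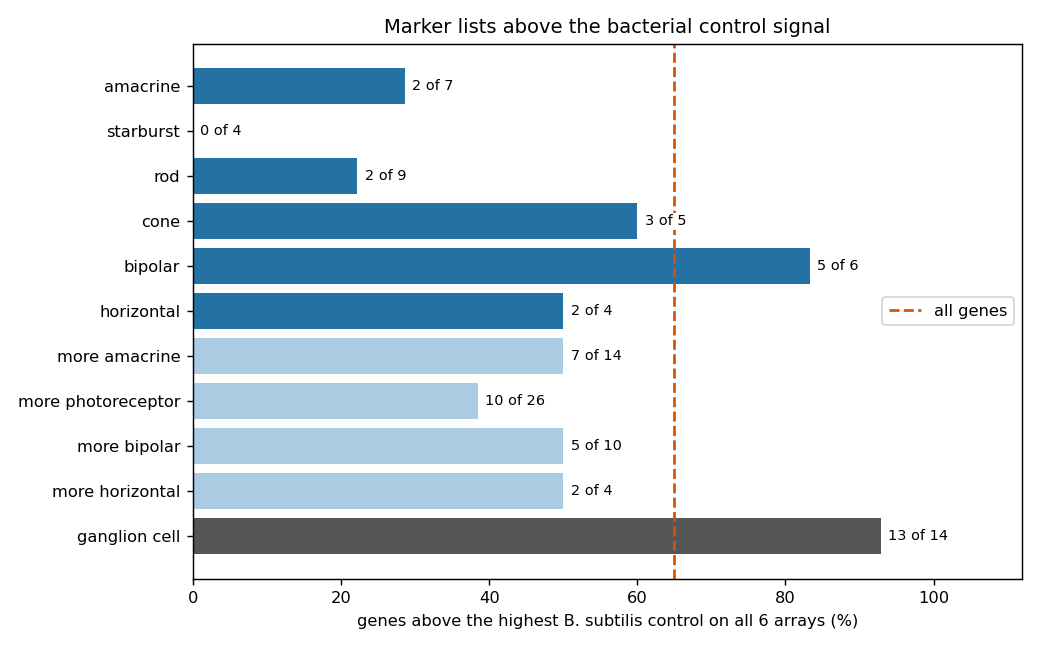
Share of the measured genes of each list that lay above the highest Bacillus subtilis control on all 6 arrays, in percent, with the counts beside the bars. Dark blue bars are the marker classes, light blue bars are lists of further genes of the same cells, the grey bar is the ganglion cell list (13 of 14) and the dashed line is the share over all genes (65%).

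Amacrine genes gave signal through 3 of their 7 members. Slc6a9, a glycine transporter of glycinergic amacrine cells that glia also express, read 7.19 and 7.16 in Hb9 cells, 7.31 and 7.46 in Drd4 cells, and 7.17 and 7.22 in Thy1 cells. Gad2, one of the enzymes that make GABA, read 5.77 and 6.27 in Hb9 cells, 6.64 and 5.93 in Drd4 cells, and 6.63 and 6.21 in Thy1 cells. The arrays of one group differed by as much as the groups did for this Gad2 probe set, and the ranges of all 3 groups overlap. A second, dimmer Gad2 probe set read 4.29 and 4.72 in Hb9 cells, 5.14 and 5.21 in Drd4 cells, and 5.36 and 4.86 in Thy1 cells. There both Hb9 values lie under all others. Hb9 minus Drd4 was -0.67 ± 0.19 and Hb9 minus Thy1 -0.61 ± 0.19, and neither passed (adjusted p = 0.0722 and 0.0991 in limma over all probe sets). Tfap2a, a transcription factor of amacrine cells, read 5.31 and 5.30 in Hb9 cells, 5.99 and 5.56 in Drd4 cells, and 5.86 and 5.92 in Thy1 cells. Both Hb9 values lie under all others, and the first of them is under the control signal of its array. The difference of Hb9 minus Thy1 was -0.58 ± 0.16 on the log2 scale and did not pass (adjusted p = 0.059 in limma). The next probe set of the gene gave -0.15 ± 0.14, and the dimmest gave 0.13 ± 0.15. That dimmest probe set was above the control signal on none of the arrays.

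The other 4 amacrine members were above the control on 0 of the 6 arrays. They are Gad1, the second GABA-making enzyme, Slc32a1, which loads GABA and glycine into vesicles, Tfap2b, and Ptf1a, a fate factor of amacrine and horizontal cells that is active in their precursors. The lowest reader of the class was Tfap2b, at 4.66 and 4.598 in Hb9 cells, 4.68 and 4.14 in Drd4 cells, and 4.92 and 4.602 in Thy1 cells. So of both GABA-making enzymes and the vesicular transporter, the brighter Gad2 probe set alone stood above the reference on all arrays. The summed intensity of the 7 genes was 348 and 367 in Hb9 cells, 432 and 376 in Drd4 cells, and 414 and 392 in Thy1 cells. The Drd4 and Thy1 sums overlap, and both Hb9 sums lie below all others. The largest parts of each sum came from Slc6a9, Gad2 and Tfap2a, and no sum without them was computed.

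The cholinergic genes that mark starburst cells were close to the reference throughout. Chat, which makes acetylcholine, read 5.20 and 5.31 in Hb9 cells, 5.48 and 5.40 in Drd4 cells, and 5.40 and 5.22 in Thy1 cells, above the control signal on 5 of 6 arrays. Slc5a7, the choline transporter, read 4.98 and 4.996 in Hb9 cells, 4.54 and 4.70 in Drd4 cells, and 4.74 and 4.51 in Thy1 cells, all under the control signal. The Hb9 values of Slc5a7 are the highest of the 6, by 0.37 ± 0.13 over Thy1 on the log2 scale, which did not pass (adjusted p = 0.132 in limma). Slc18a3, the vesicular acetylcholine transporter, and Megf10, a receptor that spaces starburst cells, were above the control on 0 of 6 arrays. The class summed to intensities of 129 and 128 in Hb9 cells, 123 and 120 in Drd4 cells, and 126 and 113 in Thy1 cells.

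Of the rod genes, the factors Nrl and Crx stood close above the reference by their brightest probe sets, and the others were not above it on all arrays. Nrl, the factor that sets rod fate, read 5.83 and 5.46 in Hb9 cells, 5.65 and 5.38 in Drd4 cells, and 5.53 and 5.46 in Thy1 cells. Crx, a factor shared by rods and cones, read 5.53 and 5.72 in Hb9 cells, 5.47 and 5.78 in Drd4 cells, and 5.68 and 5.52 in Thy1 cells. Both factors were above the control signal on all 6 arrays, and all groups overlap in each. That signal was 5.20 on the second Drd4 array, where Nrl read 5.38. A second Crx probe set was above it on 0 of 6 arrays, with log2 means of 4.42 in Hb9 cells, 4.22 in Drd4 cells and 4.40 in Thy1 cells. Gnat1, the rod transducin, was above the control on 1 array, Sag, the rod arrestin, on 4, and Pde6g, the inhibitory subunit of the rod phosphodiesterase, on 3, while the catalytic subunits Pde6a and Pde6b and the calcium sensor Rcvrn were above it on none. Prph2, a protein of outer segment discs, read 3.93 and 4.01 in Hb9 cells, 3.88 and 4.01 in Drd4 cells, and 3.89 and 3.85 in Thy1 cells. The 9 rod genes summed to intensities of 284 and 271 in Hb9 cells, 288 and 281 in Drd4 cells, and 285 and 260 in Thy1 cells, with all groups overlapping.

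Among 5 cone genes Cngb3 was higher in Drd4 cells, and the other 4 did not pass in any comparison. Cngb3, a subunit of the cyclic nucleotide-gated channel that carries the light response of cones, read 5.86 and 5.54 in Hb9 cells, 6.92 and 7.36 in Drd4 cells, and 5.70 and 5.92 in Thy1 cells. Both Drd4 values lie above the 4 others, which overlap. The log2 difference of Drd4 minus Thy1 was 1.33 ± 0.19 (2.51-fold, limma adjusted p = 0.00213), and that of Hb9 minus Drd4 was -1.44 ± 0.19 (2.70-fold lower, adjusted p = 0.00159 in limma). The difference of Hb9 minus Thy1 was -0.11 ± 0.19, with a 95% interval that includes 0 (adjusted p = 0.794 in limma).

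No other cone gene passed a test. Opn1mw, the medium-wave opsin, read 5.83 and 6.01 in Hb9 cells, 5.79 and 6.05 in Drd4 cells, and 5.81 and 5.72 in Thy1 cells. Arr3, the cone arrestin, read 5.85 and 5.85 in Hb9 cells, 5.95 and 5.96 in Drd4 cells, and 6.13 and 6.00 in Thy1 cells. Opn1sw, the short-wave opsin, was under the control signal on all arrays, at 4.63 and 4.57 in Hb9 cells, 4.596 and 4.61 in Drd4 cells, and 4.80 and 4.598 in Thy1 cells. For these genes and Gnat2, the cone transducin, the differences of Drd4 minus Thy1 ran from -0.11 to 0.16 on the log2 scale, those of Hb9 minus Thy1 from -0.23 to 0.16, and none passed. The Arr3 groups do not overlap in any pair, with Thy1 highest and Hb9 lowest, and Gnat2 does not overlap between Hb9 and Thy1, with Thy1 higher. The cone list summed to intensities of 236 and 229 in Hb9 cells, 309 and 354 in Drd4 cells, and 256 and 241 in Thy1 cells. Without Cngb3 the sums were 178 and 183 in Hb9 cells, 188 and 190 in Drd4 cells, and 204 and 181 in Thy1 cells, and the Drd4 range then lay inside that of Thy1. Cngb3 is read by a single probe set, so no other probe set of the gene bears on the difference.

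A wider list of photoreceptor genes gave no call. It was drawn up with earlier results of these arrays known and holds 30 further genes of rods and cones, 26 of them measured. None passed in limma in any of the 4 comparisons, with 2, 0, 2 and 1 at an unadjusted p below 0.05 in Hb9 minus Thy1, Drd4 minus Thy1, Hb9 minus Drd4 and both GFP groups minus Thy1. In the same order, 4195, 2647, 3593 and 3274 of all 18193 genes had an unadjusted p below 0.05 in limma. Over all genes 6.71%, 5.47%, 6.12% and 5.09% passed in the same order, so few calls would be due in a list of this length. Of these genes 10 of 26 lay above the control signal on all 6 arrays, against 65% of all genes.

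Outside the array data, the member promoters were searched for the letters TAATCC, which the photoreceptor and bipolar factors Crx and Otx2 are known to bind. The 250 bases before each annotated start were taken from the RefSeq promoter table (GRCm38.p6), which holds 30 of the 37 members, and searched for TAATCC on both strands, read as GGATTA on the other. A match was found in 6 of 17 photoreceptor and bipolar genes (35.3%), namely Sag, Crx, Gnat2, Trpm1, Cabp5 and Otx2, in 1 of 13 amacrine, starburst and horizontal genes (7.69%), Gad1, and in 1949 of 27025 genes with an entry (7.21%). A gene counted when any of its annotated starts had a match, also among all genes, so genes with several starts had more chances. Otx2 matched at 1 of 4 starts and Trpm1 at 1 of 2. A match is a run of letters and not a measured binding site. The stretches printed here are those of 4 genes with a match and, for contrast, that of Onecut1, 1 of the members whose level differed between sorts, with matches in capitals. They lie at chr7:15879956-15880205 on the minus strand, chr1:87803430-87803679, chr3:108092816-108093065 and chr7:13397905-13398154 on the plus strand, and chr9:74861671-74861920 on the plus strand.
Crx: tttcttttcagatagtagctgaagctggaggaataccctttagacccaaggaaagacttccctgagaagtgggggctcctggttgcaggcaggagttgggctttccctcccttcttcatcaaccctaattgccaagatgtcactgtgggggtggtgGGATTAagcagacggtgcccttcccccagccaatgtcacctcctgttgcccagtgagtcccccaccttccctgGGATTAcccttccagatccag
Sag: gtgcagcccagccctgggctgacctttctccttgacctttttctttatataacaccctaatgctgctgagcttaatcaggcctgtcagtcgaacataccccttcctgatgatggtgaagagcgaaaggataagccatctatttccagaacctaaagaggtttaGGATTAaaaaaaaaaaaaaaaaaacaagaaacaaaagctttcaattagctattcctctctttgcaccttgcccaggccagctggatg
Gnat2: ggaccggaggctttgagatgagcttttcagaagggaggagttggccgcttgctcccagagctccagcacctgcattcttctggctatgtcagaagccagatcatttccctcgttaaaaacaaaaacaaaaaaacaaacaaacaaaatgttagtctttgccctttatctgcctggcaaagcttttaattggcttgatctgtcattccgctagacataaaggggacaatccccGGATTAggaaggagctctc
Cabp5: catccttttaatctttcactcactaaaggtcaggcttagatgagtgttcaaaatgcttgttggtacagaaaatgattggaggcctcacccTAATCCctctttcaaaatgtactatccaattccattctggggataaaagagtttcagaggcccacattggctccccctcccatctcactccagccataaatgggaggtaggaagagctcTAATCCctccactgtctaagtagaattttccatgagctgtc
Onecut1: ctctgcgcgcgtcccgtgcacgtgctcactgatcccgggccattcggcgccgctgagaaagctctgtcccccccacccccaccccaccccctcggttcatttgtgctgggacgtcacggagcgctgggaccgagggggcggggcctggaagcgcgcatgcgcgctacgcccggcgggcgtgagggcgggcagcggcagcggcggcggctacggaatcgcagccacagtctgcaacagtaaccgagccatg
Crx and Cabp5 hold 2 matches each, Sag and Gnat2 hold 1 each, and Onecut1 holds 0. The matches of Crx begin 94 and 21 bases before the annotated start and those of Cabp5 160 and 41 bases before it. On the arrays Cngb3 and Onecut1 were the only members that passed a test between sorts, and Cngb3 has no entry in the promoter table. A link between matches and differences between sorts was not tested.

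By their brightest probe sets 5 of 6 bipolar genes were above the reference on all arrays, and 0 of 6 were when every probe set of the gene had to be. For the second count no share over all genes was computed. Prkca, which encodes protein kinase C alpha, a usual marker of rod bipolar cells that is also found in many other tissues, was the brightest, at 9.30 and 9.74 in Hb9 cells, 9.39 and 8.96 in Drd4 cells, and 9.31 and 8.85 in Thy1 cells. All groups overlap, and Hb9 minus Thy1 was 0.44 ± 0.22 in log2 units (limma adjusted p = 0.266). The next probe set of Prkca, read off after its values were seen, stood at 6.41 and 6.61 in Hb9 cells, 5.62 and 5.25 in Drd4 cells, and 5.63 and 6.33 in Thy1 cells. There Hb9 exceeded Drd4 without overlap by 1.08 ± 0.23 (adjusted p = 0.0193 in limma over all probe sets), so the calls of the probe sets differ. A further, dimmer probe set ran the other way, at -0.42 ± 0.15 for the same difference (adjusted p = 0.143 in limma over all probe sets), and it was above the control signal on none of the arrays.

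No other bipolar gene passed a test, and apart from Otx2 they lay close above the reference. Cabp5, a calcium-binding protein of bipolar cells, read 5.86 and 6.07 in Hb9 cells, 5.95 and 6.15 in Drd4 cells, and 5.54 and 5.80 in Thy1 cells. Both Thy1 values lie below all others, and Drd4 minus Thy1 was 0.38 ± 0.16 on the log2 scale, which did not pass (adjusted p = 0.29 in limma). Vsx1, a factor of cone bipolar cells, read 5.53 and 5.68 in Hb9 cells, 5.43 and 5.501 in Drd4 cells, and 5.54 and 5.61 in Thy1 cells. Trpm1, the channel of ON bipolar cells, read 5.49 and 5.42 in Hb9 cells, 5.60 and 5.40 in Drd4 cells, and 5.56 and 5.43 in Thy1 cells. Pcp2, a G protein regulator of bipolar and cerebellar Purkinje cells, read 5.69 and 5.81 in Hb9 cells, 5.72 and 5.47 in Drd4 cells, and 5.53 and 5.65 in Thy1 cells. For Vsx1, Trpm1 and Pcp2 no difference in any comparison passed. Otx2, a factor of photoreceptors and bipolar cells, was the dimmest member of all, at 3.77 and 3.52 in Hb9 cells, 3.72 and 3.45 in Drd4 cells, and 3.75 and 3.60 in Thy1 cells. The bipolar class summed to intensities of 844 and 1085 in Hb9 cells, 892 and 713 in Drd4 cells, and 836 and 671 in Thy1 cells, most of it from Prkca. Without Prkca the sums were 214 and 229 in Hb9 cells, 220 and 214 in Drd4 cells, and 200 and 210 in Thy1 cells. Of 12 further bipolar genes 10 were measured and none passed in limma in the 4 comparisons, with 0, 2, 2 and 1 at an unadjusted p below 0.05 in the order given for photoreceptor genes. The shares of all genes that passed, given there, leave few calls due in so short a list. The counts of all genes at an unadjusted p below 0.05 are given there too.

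Among horizontal cell genes, Onecut1 was lower in Drd4 cells than in Thy1 cells. Onecut1, a transcription factor of horizontal cells that is also known from developing ganglion cells, read 6.08 and 6.14 in Hb9 cells, 5.44 and 5.86 in Drd4 cells, and 6.64 and 6.65 in Thy1 cells. No groups overlap, with Thy1 highest and Drd4 lowest. The log2 difference of Drd4 minus Thy1 was -0.998 ± 0.16 (2.00-fold lower, limma adjusted p = 0.00492), and both GFP groups together minus Thy1 gave -0.77 ± 0.14 (1.70-fold lower, adjusted p = 0.0116 in limma). The call in both GFP groups rests on having both Thy1 arrays, with a limma adjusted p of 0.091 when Thy1 replicate 1 was left out and 0.0696 when Thy1 replicate 2 was. Hb9 minus Thy1 was -0.54 ± 0.16 and did not pass (adjusted p = 0.0817 in limma), and Hb9 minus Drd4 was 0.46 ± 0.16 (adjusted p = 0.146 in limma). With the compared groups alone in the fit Hb9 minus Thy1 passed (adjusted p = 0.0438 in limma). In sorted bulk RNA, fewer cells of a type and less RNA per cell cannot be told apart. The second probe set of Onecut1 was under the control signal on all arrays and gave -0.22 ± 0.13 for Drd4 minus Thy1 (adjusted p = 0.584 in limma over all probe sets).

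The related factor Onecut2 passed in no comparison, and its probe sets differ in the order of the sorts. The brightest read 6.29 and 6.10 in Hb9 cells, 5.16 and 5.63 in Drd4 cells, and 5.48 and 6.14 in Thy1 cells, so that the Thy1 arrays span from near the Drd4 to near the Hb9 values. Hb9 exceeded Drd4 by 0.80 ± 0.23 in log2 units (limma adjusted p = 0.0701), a second probe set gave 0.16 ± 0.17 for that difference, and the remaining one gave -0.36 ± 0.17. None of them passed. The other probe sets both had their highest mean in Thy1 cells, with means of 5.51 in Hb9 cells, 5.35 in Drd4 cells and 5.90 in Thy1 cells for the brighter of them and 4.81 in Hb9 cells, 5.17 in Drd4 cells and 5.31 in Thy1 cells for the dimmer. Drd4 minus Thy1 was -0.42 ± 0.23, -0.55 ± 0.17 and -0.14 ± 0.17 from the brightest probe set to the dimmest, and none passed. Lhx1, the factor that horizontal cells need for their position, and Prox1, which marks horizontal, bipolar and some amacrine cells, were above the control signal on 0 of 6 arrays. Prox1, the dimmest of the class, read 4.20 and 4.39 in Hb9 cells, 4.25 and 4.01 in Drd4 cells, and 4.73 and 4.32 in Thy1 cells. The 4 genes summed to intensities of 189 and 186 in Hb9 cells, 128 and 150 in Drd4 cells, and 198 and 221 in Thy1 cells, with Drd4 lowest and no overlap. Without both Onecut genes the sums were 43.2 and 46.9 in Hb9 cells, 48.6 and 42.4 in Drd4 cells, and 53.5 and 50.1 in Thy1 cells.

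Further horizontal cell genes also differed, and not all in the same way. Septin4, a cytoskeletal gene, was lower than in Thy1 cells by 1.19 ± 0.16 in Hb9 (adjusted p = 0.00338 in limma) and by 1.54 ± 0.16 in Drd4 (adjusted p = 0.000421 in limma), both on the log2 scale. Calb1, the calcium buffer calbindin, which ganglion and amacrine cells also make, was lower in Drd4 than in Thy1 (-1.82 ± 0.31, adjusted p = 0.00615 in limma) and higher in Hb9 than in Drd4 (2.92 ± 0.31, adjusted p = 0.000477 in limma). Gja10 and Onecut3, the other 2 genes of that list, did not pass. The microglial and vessel lists, whose sums are given above, were also highest in the Thy1 sort, and their part in the Onecut1 and Septin4 differences was not tested.

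**Figure D3:**
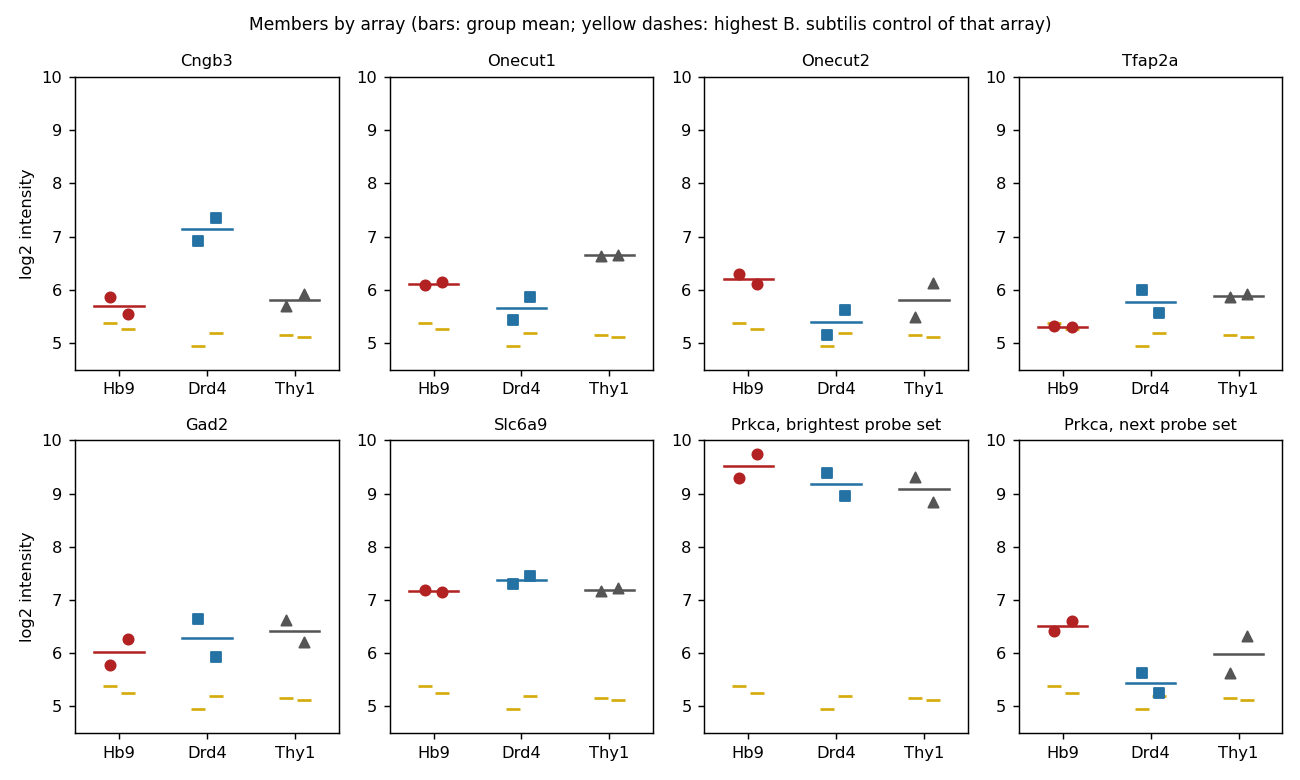
Log2 intensity on each array for 7 marker genes, with Prkca shown for its brightest and its next probe set, in Hb9, Drd4 and Thy1 cells from left to right. Horizontal bars are group means (n = 2 arrays each) and yellow dashes the highest Bacillus subtilis control of the same array. Cngb3 is highest on both Drd4 arrays (6.92 and 7.36) and Onecut1 is highest on both Thy1 arrays (6.64 and 6.65). Gad2, shown for its brightest probe set, overlaps in all groups.

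Across all 35 members few differences passed, and the shares called were near or under those of all genes. In Hb9 minus Thy1, 0 of 35 members passed in limma, against 6.71% of all 18193 genes (3.52% higher and 3.19% lower). An unadjusted p below 0.05 was reached there by 3 of the 35 members and by 4195 of the 18193 genes. In Drd4 minus Thy1, 2 of 35 passed (5.71%), Cngb3 higher and Onecut1 lower, against 5.47% of all genes (1.51% higher and 3.96% lower). In Hb9 minus Drd4, 1 of 35 passed (2.86%), Cngb3 lower, against 6.12% of all genes (4.06% higher and 2.06% lower). In both GFP groups together minus Thy1, 1 of 35 passed (2.86%), Onecut1 lower, against 5.09% of all genes (1.55% higher and 3.54% lower). The comparisons with Thy1 share its 2 arrays. The median log2 difference of the members was -0.02 in Hb9 minus Thy1, -0.03 in Drd4 minus Thy1 and 0.005 in Hb9 minus Drd4, and over all genes it was 0.04, 0.02 and 0.04.

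The share of members whose groups do not overlap was under that of all genes in each comparison. The 2 arrays of each group did not overlap for 14 of 35 members in Hb9 against Thy1 (40%, against 54.2% of all genes), for 11 in Drd4 against Thy1 (31.4%, against 41.1%) and for 15 in Hb9 against Drd4 (42.9%, against 49.7%). With both GFP groups against Thy1 it was 4 members (11.4%, against 21.2%). The 95% intervals of the log2 difference lay between -1 and 1 for 35 of 35 members in Hb9 minus Thy1, for 33 in Drd4 minus Thy1 and for 33 in Hb9 minus Drd4. The intervals that reached past these limits belong to Cngb3 in the comparisons with Drd4, to Onecut1 in Drd4 minus Thy1 and to Onecut2 in Hb9 minus Drd4. For the 15 members under the control signal on all arrays, a narrow interval does not show that the levels were equal. How large a difference could be detected at this signal was not tested.

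**Figure D4:**
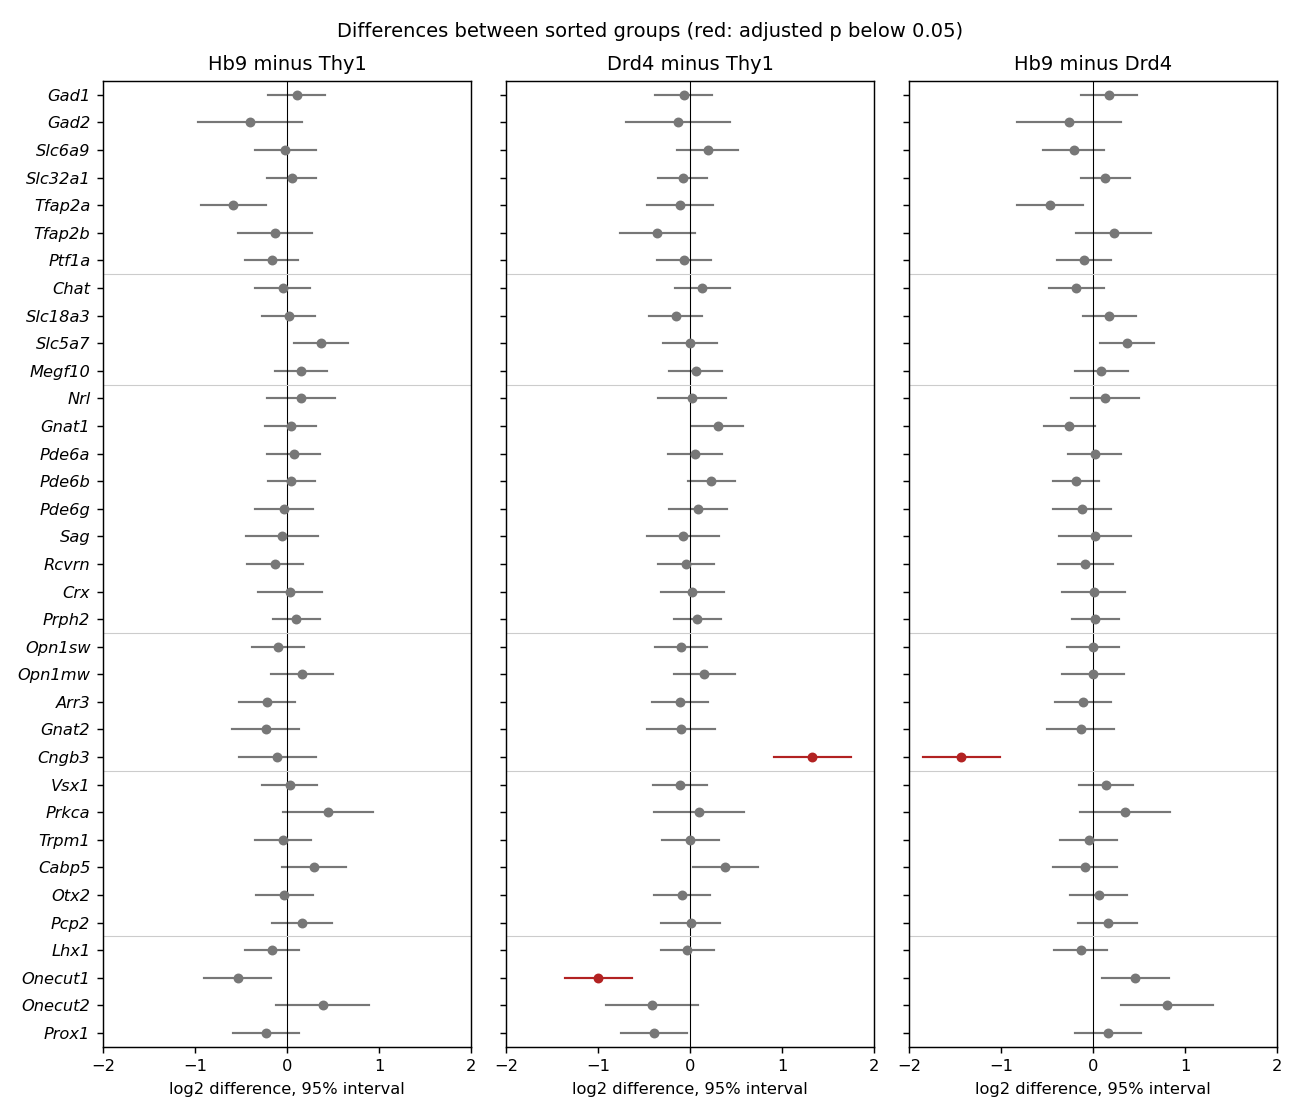
Log2 difference of the 35 marker genes with its 95% interval from limma in Hb9 minus Thy1, Drd4 minus Thy1 and Hb9 minus Drd4, with values right of 0 higher in the group named first and red marking an adjusted p below 0.05. Cngb3 and Onecut1 are the red points in Drd4 minus Thy1 (1.33 and -0.998), Cngb3 is the red point in Hb9 minus Drd4 (-1.44), and Hb9 minus Thy1 has none.

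Several amacrine genes outside the member list did pass. The list was drawn up with earlier results of these arrays known. Of 16 further genes known from amacrine cells, many of them also active in ganglion cells, 14 were measured. In Hb9 minus Thy1 2 were higher and 0 lower, in Drd4 minus Thy1 4 were higher and 1 lower, and in Hb9 minus Drd4 1 was higher and 2 lower, where 6.71%, 5.47% and 6.12% of all genes were called in either direction. Dab1, an adaptor protein found in AII amacrine cells, read 8.10 and 8.01 in Hb9 cells, 10.07 and 9.66 in Drd4 cells, and 8.41 and 8.11 in Thy1 cells. Both Drd4 values lie above all others, and the log2 difference of Drd4 minus Thy1 was 1.60 ± 0.18 (limma adjusted p = 0.000588). Ppp1r17 gave 1.55 ± 0.16 in the same comparison (limma adjusted p = 0.000274), and Meis2, a homeodomain factor, gave -2.79 ± 0.26 (limma adjusted p = 0.00018). Barhl2, a factor of amacrine and ganglion cells, was higher than in Thy1 in both GFP groups, by 0.98 ± 0.15 in Hb9 (limma adjusted p = 0.00522) and 0.77 ± 0.15 in Drd4 (limma adjusted p = 0.0121). Pax6, an eye and retina factor active in both cell types, was likewise higher in both, by 0.71 ± 0.18 in Hb9 (limma adjusted p = 0.0409) and 0.79 ± 0.18 in Drd4 (limma adjusted p = 0.0266). None of the GABA, glycine and acetylcholine genes among the members passed in any comparison.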

How the data were processed

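Gene expression was measured on 6 Affymetrix arrays, and the authors deposited 1 linear intensity per probe set and array. Software, background correction and normalisation were not given in the sources used here. Among 45101 probe sets, 34945 name 1 gene in the platform annotation, 932 name several, 9160 name none and 64 are controls, and 34741 matched the RefSeq table by Entrez identifier, which changed 0 symbols. Intensities were turned to log2 without further scaling. Each gene was read from the probe set with the highest mean, without a filter on dim genes.

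A mean per group was fitted to all 6 arrays with limma 3.58.1 in R 4.3.3 with 3 residual degrees of freedom and an intensity trend, with Benjamini-Hochberg adjustment over 18193 genes and a threshold of 0.05. Tests were two-sided, errors of differences are standard errors, and n = 2 arrays a group, which limits the precision. The smallest exact permutation p for 2 arrays against 2 is 0.333, so none was run. Samples were grouped by their titles. Figures were drawn with matplotlib 3.10.9.

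The members and gene lists were chosen with earlier results of these data known. Values per array are given for members past the threshold, members above the bacterial control on all 6 arrays, and the brightest and dimmest of each class. Outside these rules they are also given for Tfap2a and for a second probe set each of Gad2 and Prkca. From lists other than the members they are given for Slc17a6, Isl1, Dab1 and Rgs5. For other lists differences are given for up to 3 genes past the threshold per comparison. Barhl2 and Pax6 in Drd4 minus Thy1, and the vessel genes, go beyond that limit. The files name no genome build, so the positions printed are those of the RefSeq promoter table (GRCm38.p6). No label ties equal replicate numbers to a common litter, and the numbers did not enter the main fit. Deviations of samples with the same number correlated at -0.28 for Hb9 and Drd4, -0.19 for Hb9 and Thy1, and 0.37 for Drd4 and Thy1. Over the members alone the values were -0.18, -0.31 and 0.55 in that order. The alternatives were other normalisations, probe set rules, moderation settings, an offset of 16 before log2, the compared groups alone, the replicate number as a block and each array left out.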

Additional observations from a re-analysis of the deposited data

Results flagged for a closer look

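Cngb3 is given here because its difference from the Thy1 sort was not the same in both GFP lines by a test of that difference. Hb9 minus Drd4 was -1.44 in log2 units (limma adjusted p = 0.00159, n = 2 arrays a group), with both Hb9 values below both Drd4 values. No other member passed that test, and 6.12% of all genes did. With 2 arrays a group, no array could be tested as an outlier.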

How the results depend on the processing

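The Drd4 minus Thy1 calls of Cngb3 and Onecut1 passed in 15 of 15 alternatives each, with adjusted p-values in limma of 0.000451 to 0.0211 and 0.00176 to 0.0326, and so did Cngb3 in Hb9 minus Drd4 (0.000455 to 0.0156). Onecut1 in both GFP groups minus Thy1 passed in 12 of 14. In Hb9 minus Thy1 the members called numbered 2, Onecut1 and Tfap2a, with only the compared groups, and 0 to 2 with 1 array left out (2 without either Drd4 array). In Hb9 minus Drd4 they numbered 2 with only the compared groups and 2 with the replicate block, which added Onecut2, 2 with every probe set tested (an alternative chosen after seeing the data), which added Prkca, and 1 to 4 with 1 array left out (4 without Drd4 replicate 2). The replicate block changed no other count. In both GFP groups minus Thy1 they numbered 2 with quantile normalisation, which added Cngb3, and 0 to 2 with 1 array left out; only the compared groups is the same fit there. Members above the reference numbered 34 in each group against the median of the controls. When all probe sets of a gene had to be above, they numbered 4 in Hb9, 10 in Drd4 and 7 in Thy1. Shares over all genes were not computed for either of these settings. With 1 array left out members above the reference numbered 15 to 16 in Hb9, 18 to 20 in Drd4 and 18 to 19 in Thy1. Over all genes the calls in Hb9 minus Thy1, 1220, were 380 without Thy1 replicate 1, 315 without Hb9 replicate 1 and 441 without Hb9 replicate 2. Those in Hb9 minus Drd4, 1113, were 411 without Hb9 replicate 1, 689 without Drd4 replicate 1 and 532 without Hb9 replicate 2, and those in both GFP groups minus Thy1, 926, were 432 without Thy1 replicate 1. The cause of these changes was not tested.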
